A study of Mus musculus with 24 samples.

Results

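The genes of the mitochondrial respiratory chain were followed across small intestine and liver of wild-type and Casp1-null mice. A gene was taken as a member when its symbol began with Nduf, with Sdh and one of the letters a to d, with Uqcr, Cox4i, Cox5, Cox6, Cox7 or Cox8, or with Atp5, on a probe set annotated to 1 symbol. This gave 92 of the 18820 genes measured, each represented by its probe set with the highest mean over the arrays. By role, 41 members belong to complex I (6 catalytic core subunits, 28 accessory subunits and 7 assembly factors), 8 to complex II (4 subunits and 4 assembly factors), 7 to complex III, 19 to complex IV (10 common subunits and 9 alternative isoforms and relatives) and 17 to ATP synthase. Cox7c, Ndufa13 and Uqcrc2 occurred only on probe sets annotated to several genes and were left out, and the subunits encoded by mitochondrial DNA were not analysed here.

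RNA was hybridised to 24 Affymetrix whole-transcript arrays in 8 groups of 3, made up of duodenum, jejunum, ileum and liver from each genotype. The mice were males aged 14 to 16 weeks kept on chow; the wild type was C57Bl/6J, and the Casp1-null line, which lacks the inflammatory protease caspase-1, had been backcrossed to C57BL/6 for 10 generations. Livers came from mice fasted overnight for 16 h, and intestinal epithelium was scraped from fasted mice 2 h after 200 µL of olive oil by gavage, so organ and feeding state cannot be told apart. No littermates with intact Casp1 were among the controls, so the null allele and other differences between the 2 mouse lines cannot be told apart. The labels do not say whether segments with the same replicate number came from 1 mouse, and p-values measure the spread between these samples.

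Casp1 itself was lower on every null intestinal array, at 5.82 to 7.8 on the log2 scale against 8.26 to 9.95 on the 9 wild-type arrays, while in liver both genotypes lay under background. Hepatocyte markers were higher in liver (10 of 10) and enterocyte markers lower there (12 of 12). Levels below are log2 intensities, a difference of 1 being a 2-fold change, and they are compared between groups for 1 probe set, never between probe sets. The array medians were 4.874 to 5.005 in intestine and 5.187 to 5.224 in liver, and a group mean under the lowest median of its organ was read as not shown above background. Of the 92 members, 84 were above that level in every group and Cox7b2, Cox8b, Cox8c and Ndufa4l2 were under it in all 8. A set of 4 arrays stood apart: stroma markers averaged 8.98 on wild-type ileum replicate 2 and 8.61 on null ileum replicate 3, pancreatic markers averaged 10.18 on wild-type duodenum replicate 1, and the members sat low as a group (median -0.26 against the wild-type mean) on null jejunum replicate 3.

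Complexes I and II feed electrons from NADH and succinate into ubiquinone, complex III passes them to cytochrome c, and complex IV hands them to oxygen. The proton gradient that complexes I, III and IV build drives ATP synthase, whose F1 head makes ATP as its membrane ring of c subunits turns. Most subunits are nuclear genes, and in intestine and liver the chain supplies ATP for transport and biosynthesis and disposes of electrons from fatty acid oxidation.

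Promoters are shown for members on which the results turn, as the 250 bases upstream of the start that RefSeq lists first, on GRCm38.p6, read 5′ to 3′ on the gene's strand. Matched promoters were found for 77 members. Capitals mark matches, on either strand, to the NRF1 motif (GCGC, any 2 bases, then GCGC) or the ERR motif AAGGTCA, which reads TGACCTT on the other strand; both factors are known regulators of respiratory genes. Ndufs5, an accessory subunit of complex I, is shown because it was the member called lower in Casp1-null mice in every tissue, Sdha and Uqcrfs1 because they were lower in ileum than duodenum, and Cox7a1 because it differed most between intestine and liver. Atp5g3, also lower in ileum, was added after its ERR match had been seen, so the share of printed promoters with a match says nothing about the members.
Ndufs5, chr4:123718187-123718436, minus strand: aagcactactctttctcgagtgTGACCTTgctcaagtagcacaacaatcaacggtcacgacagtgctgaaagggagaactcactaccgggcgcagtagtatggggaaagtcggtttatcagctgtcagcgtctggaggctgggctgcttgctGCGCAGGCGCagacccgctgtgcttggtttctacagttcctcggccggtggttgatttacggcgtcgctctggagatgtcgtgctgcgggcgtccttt
Sdha, chr13:74350241-74350490, minus strand: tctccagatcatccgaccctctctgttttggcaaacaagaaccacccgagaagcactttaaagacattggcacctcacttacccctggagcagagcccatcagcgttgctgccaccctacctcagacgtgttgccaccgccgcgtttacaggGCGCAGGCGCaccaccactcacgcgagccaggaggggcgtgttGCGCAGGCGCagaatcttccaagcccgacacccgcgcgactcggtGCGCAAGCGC
Uqcrfs1, chr13:30545317-30545566, minus strand: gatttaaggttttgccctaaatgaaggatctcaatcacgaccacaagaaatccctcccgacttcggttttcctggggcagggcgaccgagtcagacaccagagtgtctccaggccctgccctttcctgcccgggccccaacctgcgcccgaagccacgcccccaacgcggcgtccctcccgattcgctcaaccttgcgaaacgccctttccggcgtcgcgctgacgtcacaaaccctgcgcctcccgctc
Cox7a1, chr7:30183921-30184170, plus strand: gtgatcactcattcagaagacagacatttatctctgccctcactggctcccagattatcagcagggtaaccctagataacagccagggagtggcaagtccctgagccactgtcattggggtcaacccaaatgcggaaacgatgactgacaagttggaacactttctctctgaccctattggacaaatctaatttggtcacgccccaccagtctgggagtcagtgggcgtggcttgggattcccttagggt
Atp5g3, chr2:73911327-73911576, minus strand: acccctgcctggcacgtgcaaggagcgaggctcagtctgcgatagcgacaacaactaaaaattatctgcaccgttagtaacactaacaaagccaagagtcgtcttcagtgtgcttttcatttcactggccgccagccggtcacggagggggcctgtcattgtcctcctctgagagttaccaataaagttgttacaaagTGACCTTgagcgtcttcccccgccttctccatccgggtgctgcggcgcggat
The Ndufs5 window holds 1 NRF1 and 1 ERR match, that of Sdha 3 NRF1 matches and that of Atp5g3 1 ERR match. Those of Uqcrfs1 and Cox7a1 hold no match to these letters.

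Over all 77 member promoters, 15 (19.5%) held the NRF1 motif, against 7.77% of 14476 promoters of coding genes. The ETS motif CCGGAAG, to which GABP binds, was in 14 (18.2% against 9.73%), the ERR motif in 5 (6.49% against 3.38%) and the YY1 motif AAGATGGC in 0 (against 1.58%). The 5 genes with the ERR letters were Atp5g3, Atp5l, Ndufb2, Ndufb4 and Ndufs5. These are matches of letters and were not tested as binding sites.

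The first comparison asked how the chain varied along the small intestine. In wild-type mice 51 of the 92 members differed between ileum and duodenum at an adjusted p under 0.05 (limma, Benjamini-Hochberg over all probe sets), 48 of them lower in ileum and 3 higher. Among all genes 27.9% differed, 13.2% being lower and 14.7% higher. The wild-type arrays of the 2 segments did not overlap for 76.1% of the members, against 44.8% of all genes. The median difference of the members was -0.34, against -0.053 over all genes. In Casp1-null mice 46 members differed, 45 of them lower, and 1 higher, with a background of 21%, of which 10.2% lower and 10.8% higher; 73.9% of the members did not overlap, against 35.7% of all genes, and the median was -0.40 against -0.025. The 41 members lower in both genotypes made up 85.4% of the wild-type calls and 91.1% of the null calls. In bulk tissue, fewer cells of a type and less RNA per cell cannot be told apart.

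**Figure D1:**
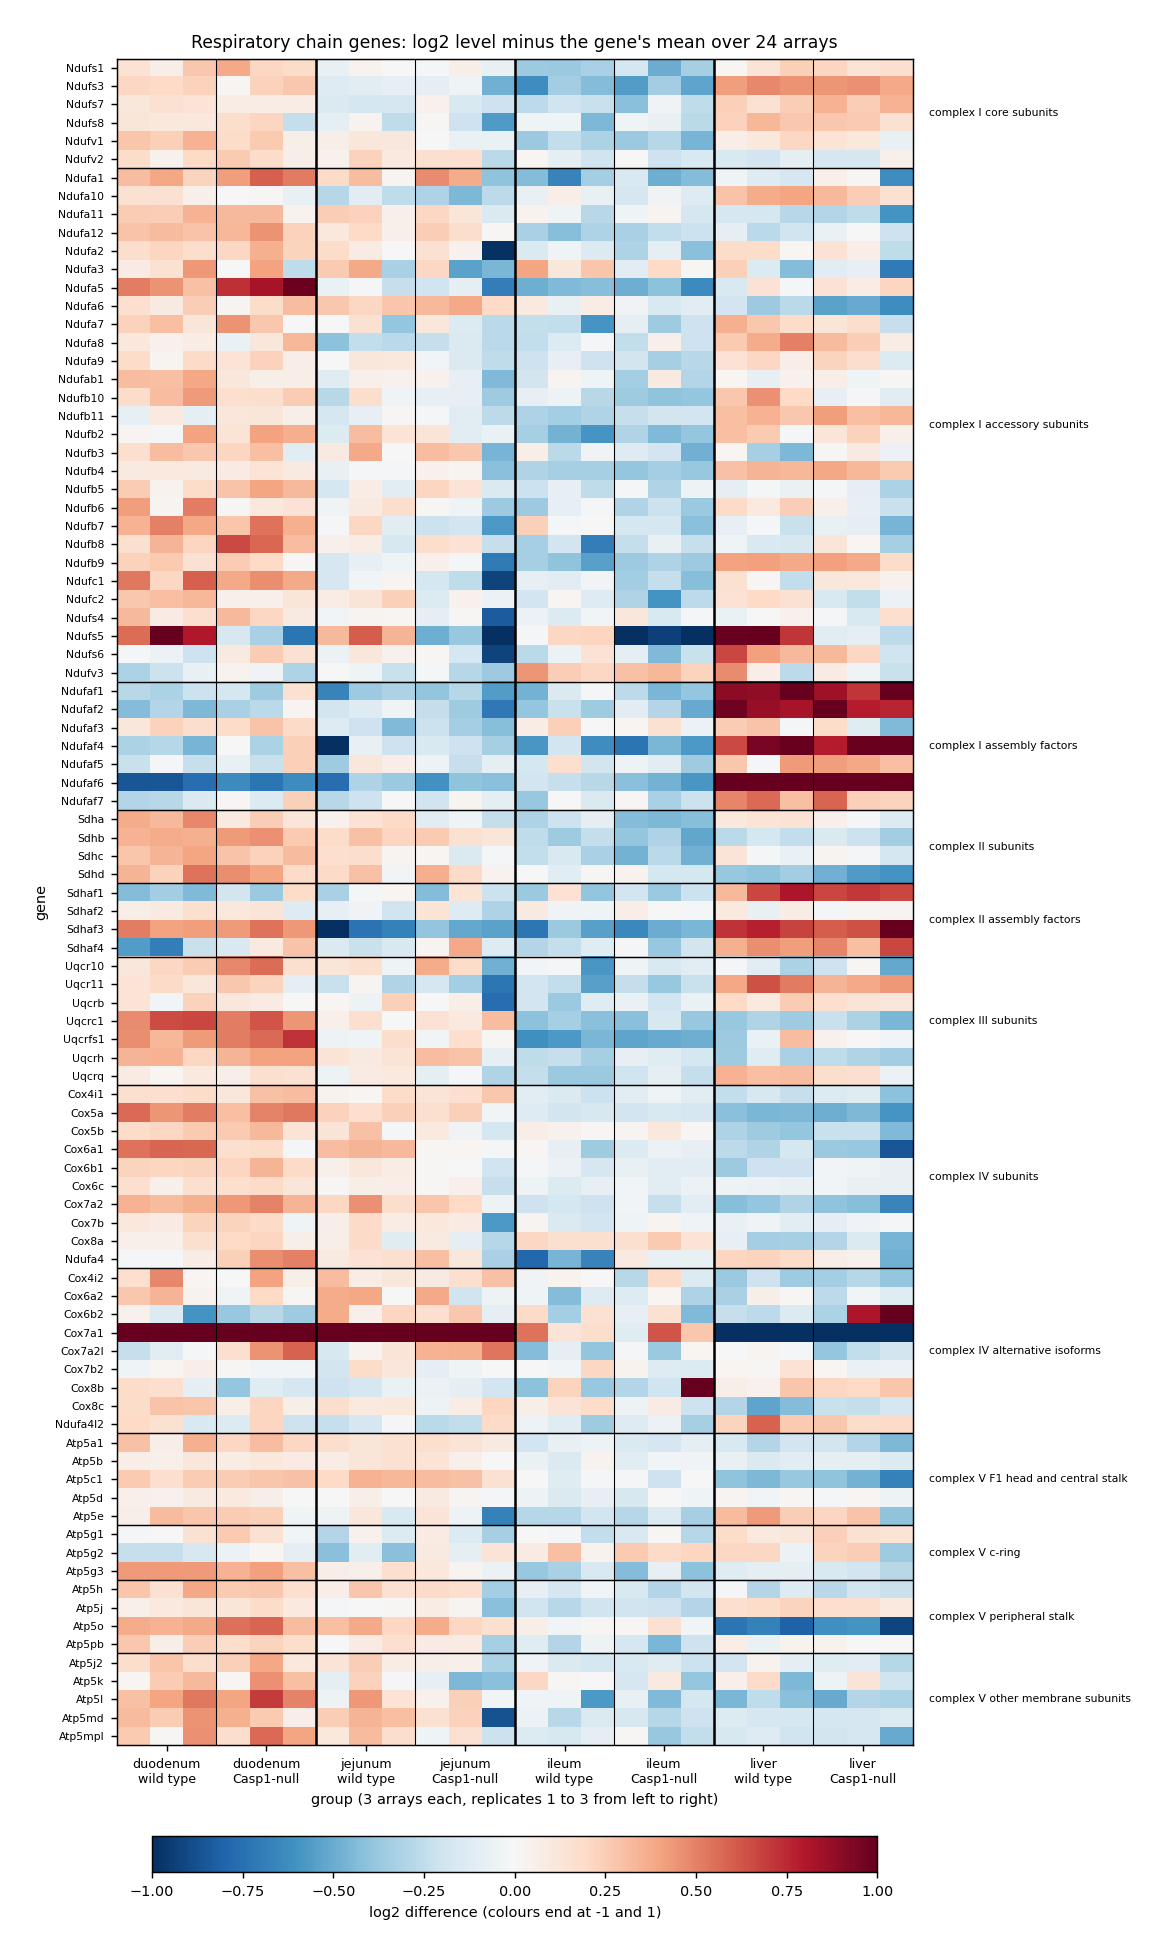
Level of each member on each array as the difference from that member's mean (log2), with members in rows by complex and the 24 arrays in columns by tissue and genotype. Most rows run from higher in duodenum to lower in ileum, and 9 of the 11 assembly factors were called higher in liver in each genotype. Of all genes 39% were called higher in liver in wild-type and 39.7% in null mice.

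All 4 subunits of succinate dehydrogenase, complex II, which also serves the citric acid cycle, were lower in ileum. Sdhb, the iron-sulfur subunit, read 11.41, 11.44 and 11.42 in wild-type duodenum and 10.81, 10.71 and 10.83 in ileum. Its ileal arrays all lay below the duodenal ones, a 1.56-fold difference (log2 -0.64, SE 0.080, adjusted p 3.4e-05). The flavoprotein Sdha read 11.63, 11.58 and 11.74 in duodenum and 10.95, 11.05 and 11.17 in ileum (log2 -0.59, adjusted p 0.000103). The membrane anchors Sdhc (-0.58, adjusted p 0.000138) and Sdhd (-0.40, adjusted p 0.0222) differed in the same direction, and all 4 were lower in null ileum as well. Of the 4 complex II assembly factors only Sdhaf3, which acts in maturation of the iron-sulfur subunit, differed. It was 1.99-fold lower in wild-type ileum (log2 -0.99, SE 0.11, adjusted p 1.39e-05).

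Sdhaf3 was lowest in jejunum rather than in ileum. Wild-type duodenum read 7.68, 7.57 and 7.58, jejunum 6.08, 6.43 and 6.49, and ileum 6.44, 6.79 and 6.62. Duodenum was 2.42-fold above jejunum (log2 1.27, SE 0.11, adjusted p 5.92e-06), whereas ileum and jejunum did not pass the test (log2 0.28, adjusted p 0.129).

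Within complex III, 5 of 7 members were lower in wild-type ileum and 4 in null ileum. The core subunit Uqcrc1 read 11.69, 11.87 and 11.89 in wild-type duodenum, 11.27, 11.39 and 11.22 in jejunum and 10.81, 10.89 and 10.8 in ileum. The 3 segments did not overlap, and each step passed the test: duodenum over jejunum by 0.52 (adjusted p 0.00392) and ileum under jejunum by a log2 difference of -0.47 (adjusted p 0.00452). From duodenum to ileum Uqcrc1 fell by 0.99 (SE 0.095, 1.98-fold, adjusted p 2.83e-06). The Rieske iron-sulfur protein Uqcrfs1 read 8.79, 8.66 and 8.75 in duodenum, 8.27, 8.28 and 8.5 in jejunum and 7.71, 7.75 and 7.87 in ileum, again without overlap. Its difference between ileum and duodenum was -0.96 (SE 0.090, adjusted p 2.16e-06) in wild-type and -1.11 (adjusted p 7.05e-07) in null mice.

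In complex I, 22 of the 34 subunits were lower in wild-type ileum and 1 was higher. Of the 6 core subunits, which carry the redox centres and the site of NADH oxidation, 4 were lower in ileum in each genotype. Ndufs3, a core subunit of the peripheral arm, read 10.32, 10.31 and 10.34 in wild-type duodenum and 9.49, 9.76 and 9.68 in ileum (log2 -0.68, SE 0.11, 1.6-fold, adjusted p 0.000443). Of the 28 accessory subunits 18 were lower and 1 higher in wild-type ileum, and 15 were lower and 1 higher in null ileum. Ndufa5 read 7.87, 7.81 and 7.65 in wild-type duodenum and 6.87, 6.92 and 6.93 in ileum (log2 -0.87, SE 0.13, adjusted p 0.000192), and the difference in null mice was -1.36 (2.56-fold, adjusted p 4.67e-06). The accessory subunit that was higher, Ndufv3, read 7.71, 7.81 and 7.95 in wild-type duodenum and 8.47, 8.27 and 8.23 in ileum (log2 0.50, SE 0.12, adjusted p 0.00567).

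None of the 7 complex I assembly factors among the members was called lower in ileum in either genotype. Ndufaf5 (4.8) and Ndufaf6 (4.45) averaged under background in wild-type duodenum, and Ndufaf6 (4.61) in null duodenum. A lower level in ileum could hardly have been shown for them. Ndufaf6 was called higher in wild-type ileum (at least 1.12-fold, adjusted p 0.000823), with duodenal arrays at 4.42, 4.42 and 4.52, under background. Over the 11 assembly factors of complexes I and II the median difference was 0.071 in wild-type mice, with 1 lower and 1 higher, against -0.37 over the 72 other subunits, of which 46 were lower and 2 higher. In null mice the medians were -0.18 and -0.42. The difference between these sets of genes was not tested. The complex I factors averaged 6.03 to 6.1 on the wild-type duodenal arrays, and RMA understates the folds of dim probe sets. The 11 factors are only those that the symbol rule selected. Of 31 other carriers and assembly factors, 6 were lower and 4 higher in wild-type ileum (median -0.154). The shares of all genes there were 13.2% lower and 14.7% higher.

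Of the 10 common complex IV subunits 6 were lower in wild-type ileum and 5 in null ileum. Cox5a, which lies on the matrix side, was lower by a log2 difference of -0.67 (adjusted p 3.7e-05) in wild-type and -0.61 (adjusted p 0.00012) in null mice, and Cox4i1 by -0.32 (adjusted p 0.00695). Cox8a was not called, at 0.089 (adjusted p 0.564). In ATP synthase all 4 peripheral stalk members were lower in ileum in both genotypes, the largest difference in wild-type mice being that of Atp5h (-0.36, adjusted p 0.0442), against 2 of 5 members of the F1 head and central stalk. Of the other membrane subunits Atp5l was lower by -0.62 (SE 0.16, adjusted p 0.0105).

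The 3 genes for the c subunit encode the same mature protein and did not move as one. Atp5g3 read 12.03 on all 3 wild-type duodenal arrays and 11.22, 11.28 and 11.45 in ileum, a 1.64-fold difference (log2 -0.72, SE 0.098, adjusted p 7.58e-05). Atp5g2 read 10.82, 10.82 and 10.89 in duodenum and 11.13, 11.35 and 11.08 in ileum, so that ileum was higher (log2 0.35, adjusted p 0.0196). Atp5g1 was not called (log2 -0.14, adjusted p 0.485). In null mice Atp5g3 was again lower (-0.66), and Atp5g2 differed by 0.27 (adjusted p 0.0845).

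Neighbouring segments gave fewer calls. In wild-type mice 22 members differed between ileum and jejunum, 19 lower in ileum and 3 higher, against 15.4% of all genes (6.74% lower and 8.7% higher). Between duodenum and jejunum 6 differed, all higher in duodenum, against 7.76% of all genes (4.38% higher). The 6 were Ndufa10, Ndufa5, Ndufaf3, Sdhaf3, Uqcrc1 and Uqcrfs1. In null mice 18 members differed between ileum and jejunum, 16 lower and 2 higher (12.8% of all genes, 6.08% lower and 6.77% higher), and 12 were higher in duodenum than jejunum (5.85% differing, 3.37% higher). Without null jejunum replicate 3 and the other 3 arrays that stood apart these counts were 10 and 6. The group means ran duodenum, jejunum, ileum from high to low for 63 of 92 members in wild-type mice (68.5%, against 30.2% of all genes) and for 64 in null mice (69.6% against 25.4%).

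**Figure D2:**
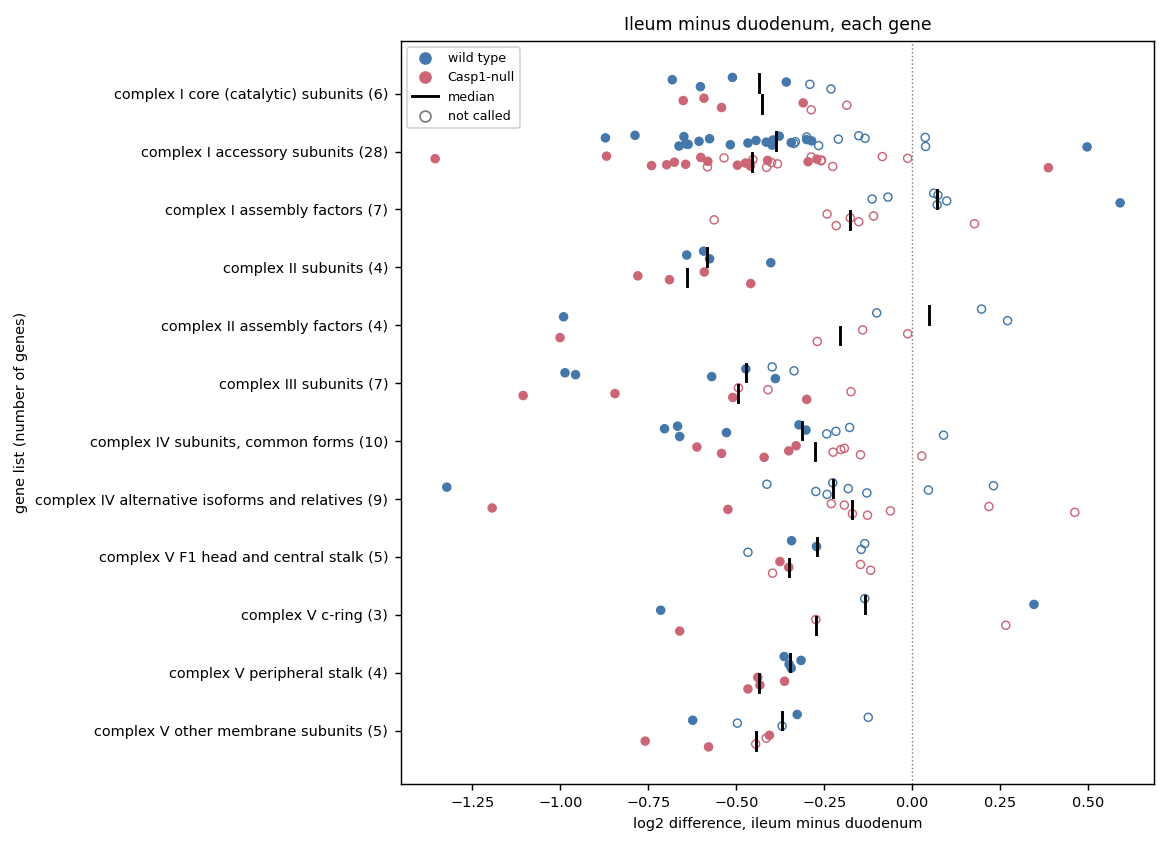
Difference between ileum and duodenum (log2) for each member, grouped by complex, in wild-type and Casp1-null mice. The median of the members lies at -0.34 in wild-type and -0.40 in null mice, and bars mark the median of each list; filled points passed the test. Of the 11 assembly factors among the members 1, Sdhaf3, was called lower in each genotype.

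Other cell types also varied along the segments. In wild-type ileum all 7 crypt and cell cycle markers and all 6 Paneth cell markers were higher than in duodenum, and 6 of 12 enterocyte markers were lower. The mean level of the crypt list was 5.06 to 5.34 in wild-type duodenum and 7.03 to 8.36 in ileum, and that of the enterocyte list was 12.57 to 12.62 and 11.3 to 11.88. Their part in the differences between segments was not tested. Among mitochondrial genes outside the chain, 12 of 17 citric acid cycle genes were lower in wild-type ileum and 2 higher, and 6 of 9 beta-oxidation genes were lower. For all these lists the shares over all genes were 13.2% lower and 14.7% higher.

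The alternative isoforms of complex IV are usually known from muscle, lung or testis. Cox7a1, the form described in heart and skeletal muscle, was well above background in intestine. It read 10.91, 11.05 and 10.76 in wild-type duodenum, 11.08, 11.08 and 10.98 in jejunum, 9.85, 9.43 and 9.48 in ileum, and 6.02, 6.39 and 6.06 in liver. No liver array came near an intestinal one, and liver was 20.5-fold lower than the mean of the segments in wild-type mice (log2 -4.35, SE 0.16, adjusted p 6.6e-15) and 26.2-fold lower in null mice (log2 -4.71, adjusted p 1.8e-15). Ileum was 2.5-fold below duodenum (log2 -1.32, SE 0.22, adjusted p 0.00036) and 2.76-fold below jejunum (log2 -1.46, adjusted p 0.000405). As a list, the 8 striated muscle markers averaged 4.23 to 4.74 on every array, under the array medians. Of these 8, 1 was called higher in ileum than jejunum in each genotype, against 8.7% of all genes in wild-type and 6.77% in null mice.

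The other isoform pairs differed less. Cox7a2, the common isoform of the same subunit as Cox7a1, averaged 10.92, 10.87, 10.39 and 10.21 in wild-type duodenum, jejunum, ileum and liver. Cox4i2, the lung form, averaged 5.24, 5.18, 5.02 and 4.71, the last under background, beside 10.85, 10.77, 10.53 and 10.47 for Cox4i1. Cox6a2, the muscle form, averaged 5.6, 5.64, 5.19 and 5.31, and its differences between segments did not pass the test. Cox6b2, the testis form, averaged 4.87 in wild-type liver, and in null liver it read 4.76, 5.89 and 6.29, a spread wider than the difference between genotypes.

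**Figure D3:**
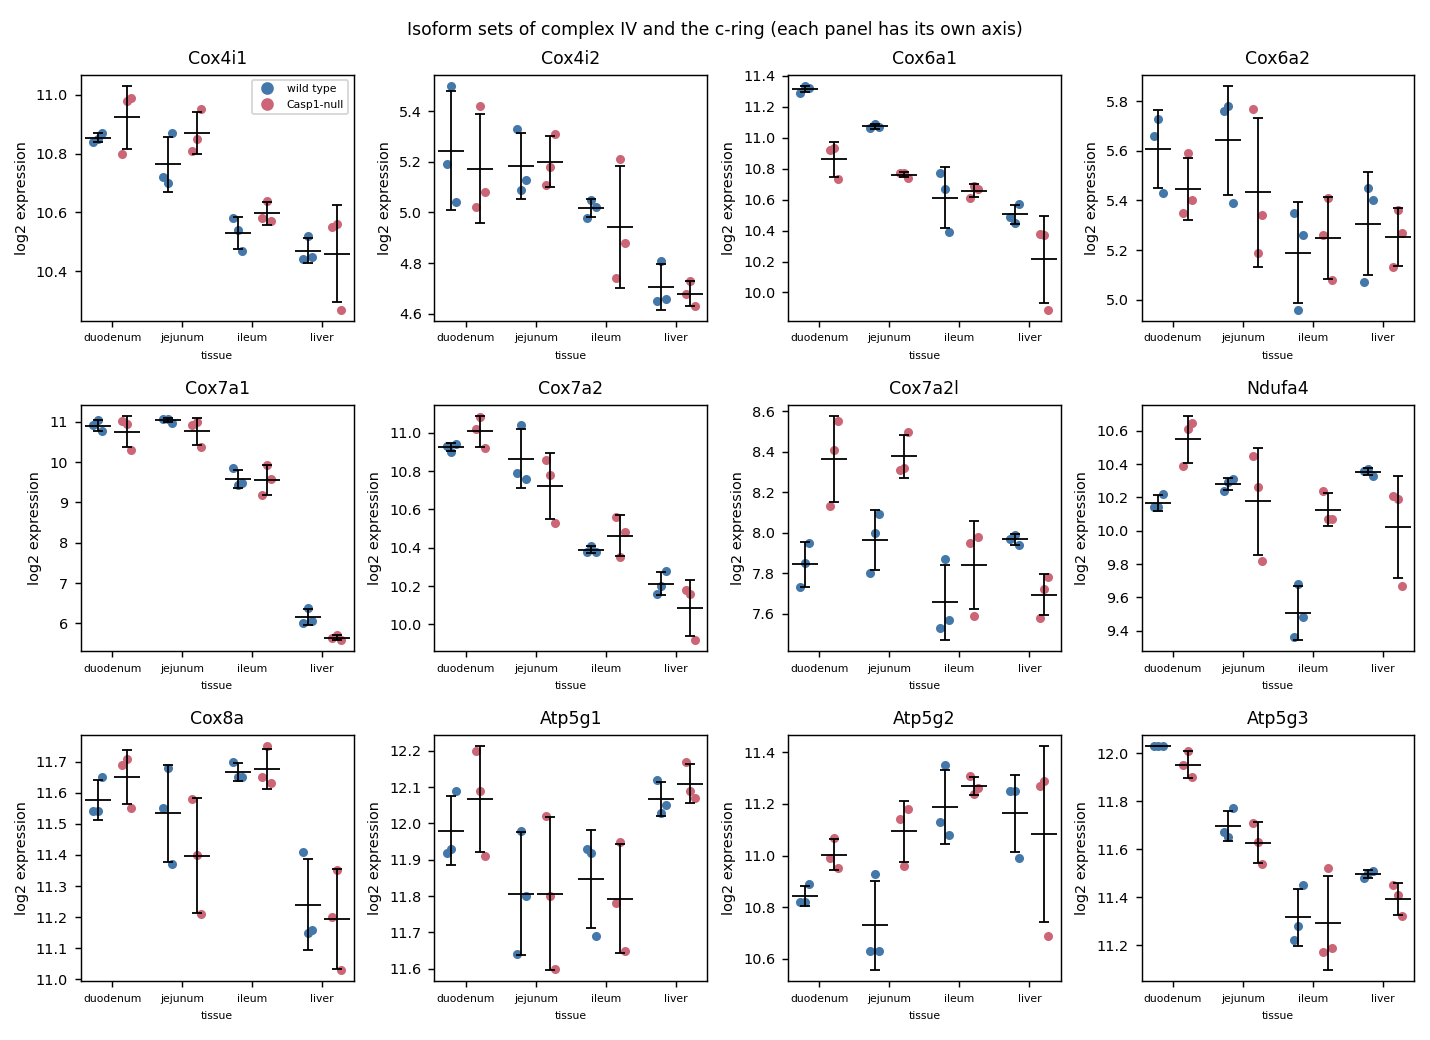
Levels (log2) of the complex IV isoforms and the c-ring genes on each array, by tissue and genotype, with mean and SD (n = 3). Cox7a1 lies at 10.91 in wild-type duodenum and 6.16 in wild-type liver on average while Cox7a2 goes from 10.92 to 10.21.

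Liver and intestine were compared within each genotype, the intestine as the mean of its 3 segments. In wild-type mice 29 members were higher in liver and 27 lower, 56 in all, against 70.1% of all genes (39% higher and 31.1% lower). In null mice 24 were higher and 26 lower, against 69.9% (39.7% higher and 30.2% lower). The median difference was 0.002 in wild-type mice, against 0.061 over all genes, and 0.008 in null mice, against 0.083. The split depends on scaling: with each array centred on its own median, 12 were higher and 51 lower in wild-type mice and 8 and 48 in null mice, the median over all genes moving from 0.061 to -0.21 and from 0.083 to -0.18.

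The assembly factors among the members stood on the liver side. Of the 11 factors of complexes I and II, 9 were higher in liver in each genotype, with medians of 0.84 and 0.86. The shares of all genes called higher were 39% in wild-type and 39.7% in null mice. The segment means of Ndufaf5 (4.87 in wild-type and 4.86 in null mice) were under background. Ndufaf6 read 7.01, 6.69 and 7.08 in wild-type liver while the mean of the wild-type segments, 4.76, was under background, giving at least a 4.16-fold difference (adjusted p 1.62e-13). Ndufaf4 read 7.22, 7.51 and 7.61 in wild-type liver against 5.48 to 6.49 over the wild-type intestinal arrays (log2 1.31, SE 0.19, 2.47-fold, adjusted p 4.2e-06). Ndufaf1, which acts early in building the membrane arm, was 2.42-fold higher (adjusted p 6.28e-09) and Sdhaf3 2.05-fold higher (adjusted p 1.45e-08). These 4 genes were also higher in liver, in both genotypes, after centring on the array medians and after quantile normalisation. Centring left 5 of the 7 complex I factors higher in wild-type and 4 in null mice.

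Subunits of complex IV and ATP synthase included the members furthest below intestine. Of the 10 common complex IV subunits 7 were lower in wild-type liver and 6 in null liver, against 31.1% and 30.2% of all genes. Cox5a read 9.11, 9.07 and 9.08 in wild-type liver, below every intestinal array (log2 -0.63, 1.55-fold, adjusted p 4.58e-08). Atp5o, which links the F1 head to the peripheral stalk, read 10.13, 10.18 and 10.05 in wild-type liver and 11.23, 11.21 and 11.24 in duodenum, and was 1.95-fold lower in liver than in intestine (log2 -0.97, SE 0.078, adjusted p 1.47e-09). Both were lower under each scaling. In complex III, Uqcr11 was higher in liver (log2 0.63, 1.55-fold, adjusted p 4.17e-05), and in the complex I core Ndufs3 was (log2 0.57), each also with centring.

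**Figure D4:**
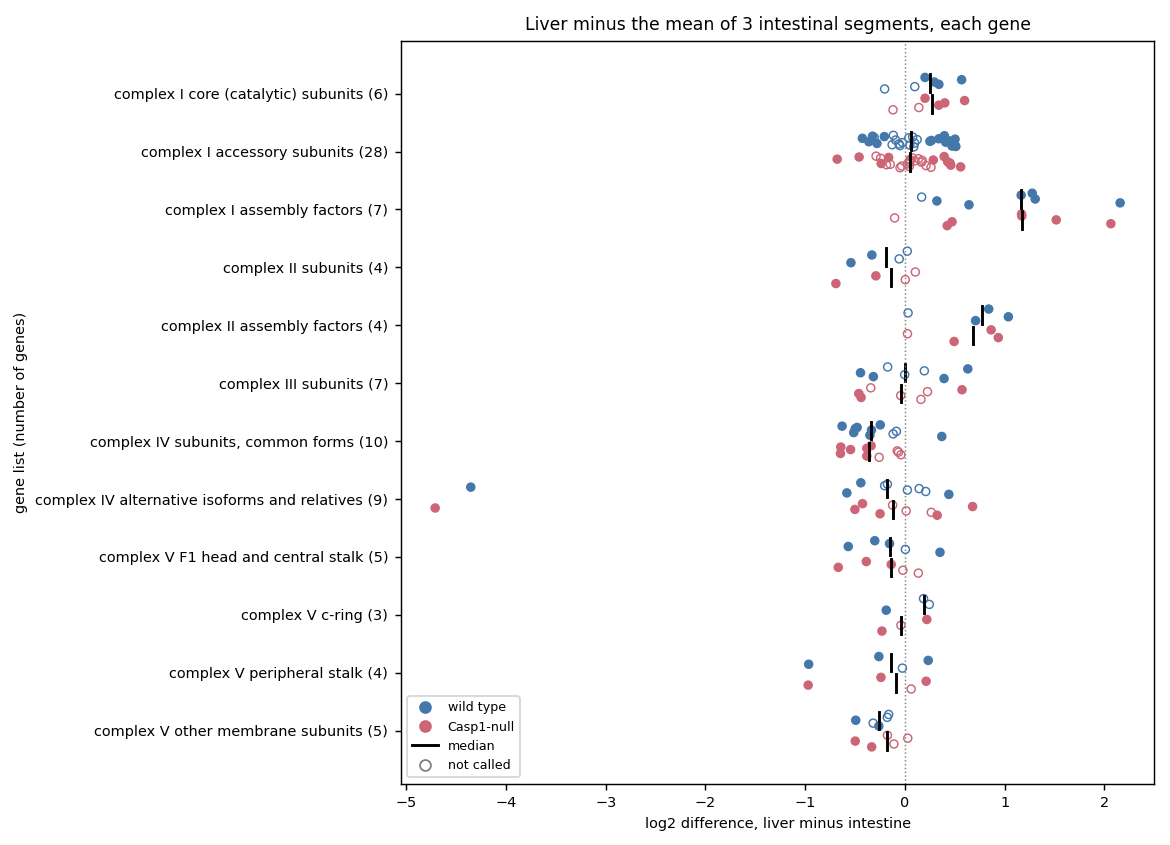
Difference between liver and the mean of the intestinal segments (log2) for each member by complex, in both genotypes. Cox7a1 lies lowest, at -4.35 in wild-type mice, and 9 of the 11 assembly factors lie on the liver side and passed the test. Of all genes 39% were called higher in liver in wild-type and 39.7% in null mice. Counts between liver and intestine depend on scaling.

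The study's main comparison, Casp1-null against wild type, left nearly all members without a call. In liver 1 of 92 members was called (0.925% of all genes), in duodenum 2 (1.21%), in jejunum 1 (2.06%), in ileum 2 (0.893%) and over the mean of the segments 1 (2.07%). At an unadjusted p below 0.05 the counts were 8, 10, 12, 6 and 10 of 92. The shares of all genes at that level were 12.8%, 13%, 12.9%, 6.9% and 14.3%. The arrays of the genotypes did not overlap for 20.7% of members in liver, 21.7% in duodenum, 18.5% in jejunum, 12% in ileum and 22.8% over the segment means, beside 20%, 22.7%, 19.5%, 9.23% and 21% of all genes. The median difference of the members was -0.05 in liver, 0.017 in duodenum, -0.097 in jejunum and -0.012 in ileum, beside -0.006, -0.023, -0.002 and -0.007 over all genes. Leaving out 1 array moved the median of the members between -0.075 and -0.012 in liver, -0.014 and 0.045 in duodenum, -0.16 and -0.015 in jejunum and -0.052 and 0.003 in ileum, so its sign was not stable in duodenum or ileum. The jejunal value of -0.015 was that without null jejunum replicate 3, and null liver replicate 3 also sat low (median -0.13 against the wild-type mean, 25 of 92 members above it).

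Ndufs5 was the member called lower in null mice in all 4 tissues. Wild-type duodenum read 7.51, 8.01 and 7.75 and null duodenum 6.79, 6.63 and 6.22, and wild-type jejunum read 7.28, 7.56 and 7.29 and null jejunum 6.46, 6.57 and 5.58. Wild-type ileum read 6.94, 7.16 and 7.17 and null ileum 5.93, 6.02 and 5.94, and wild-type liver read 7.94, 8.04 and 7.67 and null liver 6.84, 6.86 and 6.69. The genotypes did not overlap in any tissue. Ndufs5 fell by 1.21 in duodenum (SE 0.22, 2.32-fold, adjusted p 0.0111), by 1.18 in jejunum (adjusted p 0.0103), by 1.13 in ileum (adjusted p 0.0213) and by 1.09 in liver (SE 0.12, 2.13-fold, adjusted p 0.0185).

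The call sat close to the threshold. Leaving out 1 array ended it in liver (without wild-type 1 or 2 or null 2 or 3, adjusted p 0.0688 to 0.0936), in duodenum (without wild-type 2 or null 3, 0.0683 and 0.0706), in jejunum (without wild-type 2, 0.0588) and in ileum (without wild-type 2 or 3 or any null array, 0.0587 to 0.0966). The call was also lost in liver with a replicate block (0.0558), in jejunum on its own 6 arrays (0.149) and in ileum without the 2 arrays high in stroma markers (0.189). The fitted difference kept its sign in each of these fits. A second probe set, annotated to both Ndufs5 and its pseudogene Ndufs5-ps, did not pass the test in any tissue: -0.13 in liver (adjusted p 0.714), 0.35 in duodenum (0.541), -0.21 in jejunum (0.836) and 0.074 in ileum (0.999). On that probe set the genotypes overlapped in liver, jejunum and ileum, and in duodenum the nulls were higher (7.43, 7.42 and 7.22 against 6.93, 6.88 and 7.21). The 2 probe sets therefore disagree, and which transcripts each one reads was not tested.

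**Figure D5:**
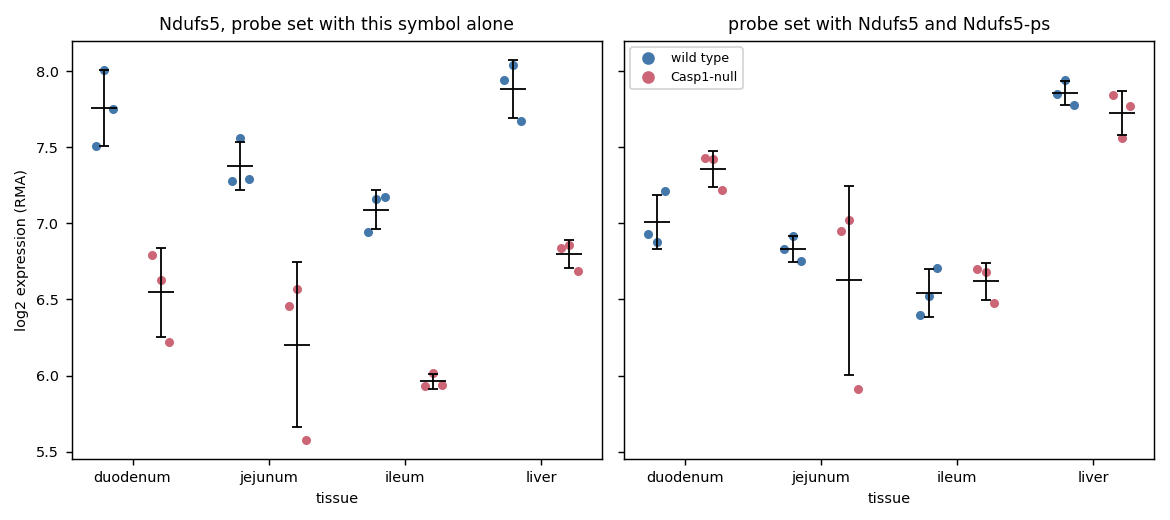
Level of Ndufs5 (log2) on each array for its single-symbol probe set and for the probe set shared with Ndufs5-ps, by tissue and genotype. The single-symbol probe set is lower in the nulls in all 4 tissues, whereas on the shared one the genotypes overlap in liver, jejunum and ileum. Bars show mean and SD (n = 3).

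The other calls each came from 1 segment. Cox6a1, the common form of a complex IV subunit, read 11.29, 11.33 and 11.32 in wild-type and 10.92, 10.93 and 10.73 in null duodenum, a fall of 1.37-fold (log2 -0.46, SE 0.091, adjusted p 0.0234). In jejunum the genotypes did not overlap either, at 11.06 to 11.09 and 10.74 to 10.77, but the difference missed the threshold (log2 -0.31, adjusted p 0.123), and in ileum it was 0.045. Cox6a1 was not called in duodenum without wild-type 1, 2 or 3 or null 3 (adjusted p 0.0584 to 0.131), nor as the mean of its probe sets (log2 -0.30, adjusted p 0.329). The interaction between ileum and the proximal segments was 0.43 for Cox6a1 (adjusted p 0.426). In that interaction 0 members were called, against 0.0584% of all genes. Of the 92 members 3 had an unadjusted p under 0.05, against 5.81% of all genes.

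Ndufa4, once assigned to complex I and now to complex IV, read 9.36, 9.68 and 9.48 in wild-type and 10.24, 10.07 and 10.07 in null ileum, and was 1.54-fold higher in the nulls (log2 0.62, SE 0.13, adjusted p 0.0475). It was not called without wild-type 1 or 3 or any null array (adjusted p 0.0939 to 0.213), or without the 2 ileal arrays high in stroma markers (0.0871). The call was also lost with centring (0.0979), quantile normalisation (0.05), a replicate block (0.0845) and a fit on the 6 ileal arrays alone (0.269). Cox7a2l, which takes part in joining complexes III and IV, differed between genotypes unequally in liver and intestine: null minus wild type was -0.27 in liver (adjusted p 0.319) and 0.37 over the segments (adjusted p 0.14), and the interaction was -0.64 (SE 0.15, adjusted p 0.0229). It was 1 of 92 members called there, against 2.78% of all genes. Cox7a1 and Ndufb10 followed Ndufs5 in liver by p, at -0.51 (adjusted p 0.17) and -0.37 (adjusted p 0.212).

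Genes that serve the chain without belonging to it gave a few more calls. Cox18, which inserts a complex IV subunit into the membrane, rose 1.84-fold in null duodenum (log2 0.88, adjusted p 0.00124) and by 0.86 in jejunum (adjusted p 0.00135), beside 0.54 in ileum (adjusted p 0.0551) and 0.41 in liver (adjusted p 0.206). Lyrm7, a complex III assembly factor, fell by 0.90 in duodenum (adjusted p 0.0255), and its differences in jejunum and ileum were -0.74 (adjusted p 0.056) and -0.79 (adjusted p 0.0719). Timmdc1, a complex I assembly factor, fell by 0.62 in jejunum (adjusted p 0.0246), beside -0.50 in duodenum (adjusted p 0.0929) and -0.59 in ileum (adjusted p 0.0532). Acad9, another complex I assembly factor, fell by 0.51 in ileum (adjusted p 0.0295), beside 0.093 in duodenum and 0.107 in jejunum, neither called. Atpaf2, an assembly factor of ATP synthase, rose by 0.40 in jejunum (adjusted p 0.0296), beside 0.15 in duodenum and 0.278 in ileum, neither called. In liver the differences were -0.446 for Lyrm7, 0.003 for Timmdc1, -0.233 for Acad9 and 0.02 for Atpaf2, none called.

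Among regulators and fuel pathways, Ppargc1a, a coactivator of mitochondrial biogenesis, rose 2.03-fold in null jejunum (log2 1.02, adjusted p 0.00813). Its difference in liver was as large but missed the threshold (log2 1.07, SE 0.23, adjusted p 0.133). Of the 9 beta-oxidation genes measured, 2 were called higher in null duodenum, 2 in jejunum and 1 in ileum, and none was called lower. Of all genes 1.21%, 2.06% and 0.893% were called in either direction. By sign alone, 2 of the 9 read lower in duodenum, 3 in jejunum and 1 in ileum. Acaa2, which carries out the thiolase step, rose by 1.13 in jejunum (adjusted p 0.000302) and 0.63 in ileum (adjusted p 0.0402). The dehydrogenase Acadl rose by 0.67 in duodenum (adjusted p 0.0342) and 0.67 in jejunum (adjusted p 0.0277), and the isomerase Eci1 by 0.75 in duodenum (adjusted p 0.0264). Eci1 was not called in jejunum (-0.117) or ileum (0.23). Slc25a4, an adenine nucleotide carrier, was called over the mean of the segments alone (log2 0.97, adjusted p 0.0249). None of the citric acid cycle genes was called by genotype in any tissue, and none of the listed mitochondrial genes in liver. Of the cell type marker lists, Rnase1 was called in duodenum, Fabp1 in ileum, and Clec2h and Zg16 in liver. Over the mean of the segments Rnase1, Fabp1 and Ang4 were called. Most intestinal markers read lower in null liver: 10 of 12 enterocyte (2 higher, median -0.60), 5 of 6 goblet (1 higher, -0.63) and 6 of 6 distal markers (-0.49). Of all genes 48.3% read higher there. In null duodenum 7 of 7 crypt (median 0.47), 6 of 6 endothelium (0.715) and 9 of 10 immune markers (1 lower, 0.292) read higher. All 7 pancreatic markers read lower there (-2.222), wild-type duodenum replicate 1 being high in them. Of all genes 45.1% read higher in null duodenum. All 6 endothelium markers also read higher in null jejunum (0.395) and ileum (0.238). The part of these markers in the genotype differences was not tested.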

How the data were processed

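Total RNA (100 ng, RNA integrity number above 8.0) was labelled and hybridised, per the labels' protocols. The deposited values are log2 intensities that the authors normalised by RMA, per the submitters' processing notes; no version of it is named in the sources used here. RMA compresses small intensities, so folds of dim probe sets are understated. No array was left out of the main fits. Of 35556 probe sets, 21218 had 1 symbol, 1881 several and 12457 none.

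Group means were compared with limma 3.58.1 (R 4.3.3; lmFit and eBayes), p-values being adjusted by Benjamini-Hochberg over all 35556 probe sets and called under 0.05. The liver genotype fit used 6 arrays, the intestinal fits 18, and the organ comparison 24. The mean over segments averaged arrays of 1 replicate number as if they shared a mouse, which the labels leave unsaid. With 3 against 3 arrays an exact permutation test cannot go below 0.1. On simulated data for the duodenal genotype comparison with 35556 probe sets, 74% of probe sets changed by 1 log2 unit were recovered, and 57% for liver.

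Named members were those called by genotype, the 3 smallest p per genotype comparison, the isoform sets, complex II, the largest tissue differences overall and per list, and genes of the other mitochondrial lists called by genotype, at most 3 per list and comparison. Genes named beyond these were chosen after their values were seen. The members and lists were chosen with earlier results of these data known. Alternatives were other scalings, filters, probe set rules, a replicate block, own-tissue fits and leaving out arrays; 2 that drop arrays standing apart were added after seeing the data.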

Additional observations from a re-analysis of the deposited data

Results flagged for a closer look

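Cox7a2l differed between liver and intestine in its genotype difference, by -0.64 (log2; SE 0.15, adjusted p 0.0229, limma interaction term). In liver the wild-type arrays read 7.97, 7.99 and 7.94 and the null arrays 7.58, 7.72 and 7.78, so the nulls were lower on 3 of 3 arrays. In duodenum the wild type read 7.73, 7.85 and 7.95 and the nulls 8.13, 8.41 and 8.55, higher on 3 of 3 arrays. In jejunum they read 7.8, 8 and 8.09 and 8.31, 8.32 and 8.5, and in ileum the genotypes overlapped, at 7.53, 7.87 and 7.57 and 7.95, 7.59 and 7.98. Leaving out wild-type liver 1, 2 or 3 or null liver 1 or 2 gave adjusted p of 0.0523 to 0.07, and the mean of its probe sets gave -0.50 (adjusted p 0.185). The cause was not tested.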

How the results depend on the processing

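Over 15 counts of called members, 106 of 123 values under other settings stayed within 1.5 times the main count and 17 moved; in 132 fits without 1 array, 97 did. With a replicate block the counts were 0 in liver, 1 in ileum and 0 for the segment mean. Fits on a tissue's own 6 arrays gave 1 in duodenum, 0 in jejunum and 1 in ileum. The mean of probe sets gave 1 in duodenum and 0 for the liver interaction, where the filter on low values gave 2. Centring gave 1 in ileum. Without the 4 arrays that stood apart, duodenum had 1, null duodenum against jejunum 6 and null ileum against jejunum 10. Without the 2 stroma-rich ileal arrays, ileum had 0 and wild-type ileum against jejunum 14. Wild-type duodenum against jejunum had 10 with a trended prior and 10 with the filter.

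Leaving out 1 array gave 0 to 2 calls in liver, 0 to 2 in duodenum, 1 in jejunum, 0 to 1 in ileum, 0 to 1 for the segment mean, 0 to 2 for the liver interaction and 0 for the ileal one. In wild-type mice it gave 3 to 5 for duodenum against jejunum (3 without duodenum 1 or 2 or jejunum 3), 15 to 20 for ileum against jejunum, 37 to 43 for ileum against duodenum and 43 to 55 for liver. In null mice it gave 6 to 10 (6 without duodenum 2 or jejunum 3), 10 to 22 (10 without jejunum 1 or 2), 34 to 44 and 43 to 54.

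Same-numbered arrays of the 2 genotypes did not deviate together (median correlation -0.078 in duodenum, -0.46 in ileum, -0.11 in jejunum, 0.067 in liver), and between segments the same-number medians were -0.001 in wild-type and 0.077 in null mice, against -0.043 and -0.054 for different numbers, with some pairs below 0. The numbers were not taken as pairs, except in the mean over segments, which averaged arrays by replicate number, and in the replicate-block alternatives. Between ileum and duodenum 27 of 51 wild-type and 31 of 46 null calls held in every alternative run, and no sign turned; against liver the sign turned in some setting for 4 members in wild-type and 3 in null mice. Recovery of changes under 1 log2 unit was not simulated.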

Other observations

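Of 14 regulators of mitochondrial biogenesis, 4 were lower, 2 higher and 8 not called in wild-type ileum against duodenum, beside 13.2% of all genes lower and 14.7% higher. The genes given were named after their values were seen. In wild-type ileum against duodenum Esrra, the nuclear receptor ERR alpha, was lower by a log2 difference of -0.83 (limma adjusted p 5.52e-05), its coactivators Ppargc1a by -0.91 (0.00187) and Ppargc1b by -1.28 (0.00109). In null mice the differences were -0.75, -0.60 (0.0339) and -1.13. Polg, the mitochondrial DNA polymerase, was lower too (-0.72 in wild-type, -0.45 in null mice), whereas Tfb2m, a mitochondrial transcription factor, and Twnk, the mitochondrial DNA helicase, were higher in wild-type ileum, by 0.80 (0.00803) and 0.71 (0.0205), and were not called in null mice. Gabpa was also lower in null ileum (-0.28, adjusted p 0.044).

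The promoter letters were counted by call. In wild-type mice the ERR motif was in 5 of 42 promoters of members lower in ileum (11.9%) and in 0 of 35 of the others, and in null mice in 4 of 38 (10.5%) and 1 of 39 (2.56%). The NRF1 motif was in 9 of 42 (21.4%) and 6 of 35 (17.1%) in wild-type mice, and in 5 of 38 (13.2%) and 10 of 39 (25.6%) in null mice. The GABP motif was in 10 of 42 (23.8%) and 4 of 35 (11.4%) in wild-type mice, and in 8 of 38 (21.1%) and 6 of 39 (15.4%) in null mice. These shares were not tested.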
